A study of Homo sapiens with 20 samples.

Results

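The HOXC cluster on chromosome 12 was described from CTCF and histone mark ChIP-seq in 2 human cell lines. It holds 9 homeobox genes, which stand from left to right as HOXC13, HOXC12, HOXC11, HOXC10, HOXC9, HOXC8, HOXC6, HOXC5 and HOXC4 and are all read rightwards. The genes span chr12:54332615-54449814 (hg19), and every called peak or region between chr12:54280000 and 54500000 was taken, which left no member out. This 220001-bp window held 7 CTCF sites over all CTCF libraries, 14 H3K4me3 regions and 12 H3K27ac regions, where regions called in 1 library only were not counted. Genome-wide, 33413 CTCF sites were present in both control libraries of LNCaP, of which 5 lay in the window.

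The study transfected cells with 20 nM of a pool of siRNAs against CTCF or of a non-targeting pool (control siRNA). The cells were profiled after 144 h. LNCaP, a prostate cancer cell line, was profiled for CTCF, H3K4me3 and H3K27ac. IMR90, a lung fibroblast line, was profiled for CTCF alone, with the standard protocol and with a low-cell protocol on far fewer cells. The study describes a repeat transfection midway for LNCaP and another transfection reagent for IMR90. It reports a smaller fall of CTCF mRNA in IMR90 than in LNCaP. Differences between the cell lines after CTCF siRNA cannot be told apart from these differences in treatment. Each of the 10 groups had 2 libraries, 20 in all, which the study calls biological replicates, and the siRNA lowers CTCF without deleting its gene.

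HOX genes encode homeodomain transcription factors that set position along the body axis, and their order along the chromosome follows the order in which they are used from head to tail. HOXC4 stands at the anterior end and HOXC13 at the posterior end. CTCF is a zinc-finger protein that binds a long, oriented DNA motif and, with cohesin, anchors chromatin loops. In HOX clusters it is known for binding between genes, where it can separate chromatin with active marks from chromatin held silent by Polycomb proteins. H3K4me3 marks active or poised gene starts, and H3K27ac marks active starts and enhancers.

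The sites were numbered S1 to S7 from left to right. The DNA of 4 LNCaP control sites, S2, S3, S4 and S6, is shown because their fate was followed. The capitals mark the stretch within 100 bp of the summit that was closest to the CTCF core consensus, a motif of 14 positions searched on both strands. The summit used was that of the site's highest peak over all CTCF libraries. The sequences come from the GRCh37 assembly, 5′ to 3′.
S2, chr12:54383049-54383142, minus strand: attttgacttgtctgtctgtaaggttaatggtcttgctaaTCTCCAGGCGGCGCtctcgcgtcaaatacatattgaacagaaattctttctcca
S3, chr12:54399767-54399860, minus strand: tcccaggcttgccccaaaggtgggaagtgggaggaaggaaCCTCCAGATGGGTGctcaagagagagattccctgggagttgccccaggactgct
S4, chr12:54415570-54415663, minus strand: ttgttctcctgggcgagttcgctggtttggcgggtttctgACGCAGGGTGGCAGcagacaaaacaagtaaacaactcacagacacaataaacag
S6, chr12:54426486-54426579, plus strand: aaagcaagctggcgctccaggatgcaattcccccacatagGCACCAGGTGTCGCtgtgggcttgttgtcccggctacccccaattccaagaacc

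A match was counted at up to 2 mismatches. S6 held a match with 2 mismatches, on the plus strand. The closest stretch had 3 mismatches at S2 and S3 and 4 at S4, so 1 of these 4 sites held a match. Among all LNCaP control sites 74.0% held one, against 5.23% of windows of the same length placed 1000 bp to the right. S3, the site found in every CTCF library, held no match in its window. That window was centred on chr12:54399838, the summit of its highest peak, in standard IMR90 control replicate 2. Its LNCaP control summits lay at 54399892 and 54399869, and windows centred there were not searched. The search at S3 is thus not like that behind the 74.0%. The windows of the 4 sites, 201 bp wide, ranged in G and C content from 43.8% at S2 to 59.2% at S4. S4 held 11 CpG dinucleotides and S2 held 9, whereas S3 and S6 held 4 each.

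Peak lists hold no reads, so the depth of each library cannot be read from them. The study's library list gives LNCaP CTCF siRNA replicate 1 as the shallower of its pair, and as shallower than both LNCaP CTCF control libraries. How far this lower depth shortened its list was not tested. The LNCaP CTCF lists held 38017 and 46364 peaks in control and 3724 and 7730 peaks in CTCF siRNA libraries. The standard IMR90 lists held 35719 and 36890 control and 19180 and 18539 CTCF siRNA peaks, and the low-cell lists 20284 and 19153 against 5111 and 2021. No pair of replicates had identical lists. The cell identity of LNCaP was checked at gene starts. All 7 luminal prostate genes reported here, KLK3, KLK2, TMPRSS2, FOLH1, HOXB13, KRT8 and KRT18, had H3K4me3 and H3K27ac in all 4 libraries of each mark. Of 6 fibroblast genes, TWIST1 had H3K4me3 in all 4, 3 had it in none, and none of the 6 had H3K27ac. The identity of IMR90 could not be checked in this way, because it has no histone libraries.

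In LNCaP, CTCF siRNA left 1 of the 5 HOXC sites bound in both libraries, the site between HOXC9 and HOXC8. In standard IMR90 libraries 2 of 3 sites were kept, this site and the site beside HOXC5, and in low-cell IMR90 libraries 1 of 2, again the site between HOXC9 and HOXC8. A site is called persistent when both CTCF siRNA libraries have a peak there, and lost otherwise. The genome-wide shares of persistent sites were 9.26% in LNCaP, 51.4% in standard IMR90 and 10.9% in low-cell IMR90, and the counts of 2 to 5 HOXC sites are set beside them without a test. Of the 4 sites lost in LNCaP, 1 still had a peak in 1 CTCF siRNA library and 3 had none. No site of the window was gained in any experiment. Genome-wide, gained sites numbered 50 in LNCaP, 129 in standard IMR90 and 9 in low-cell IMR90, beside 33413, 30523 and 16863 control sites. The absence of gained sites is thus not read as a result about the window.

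**Figure D1:**
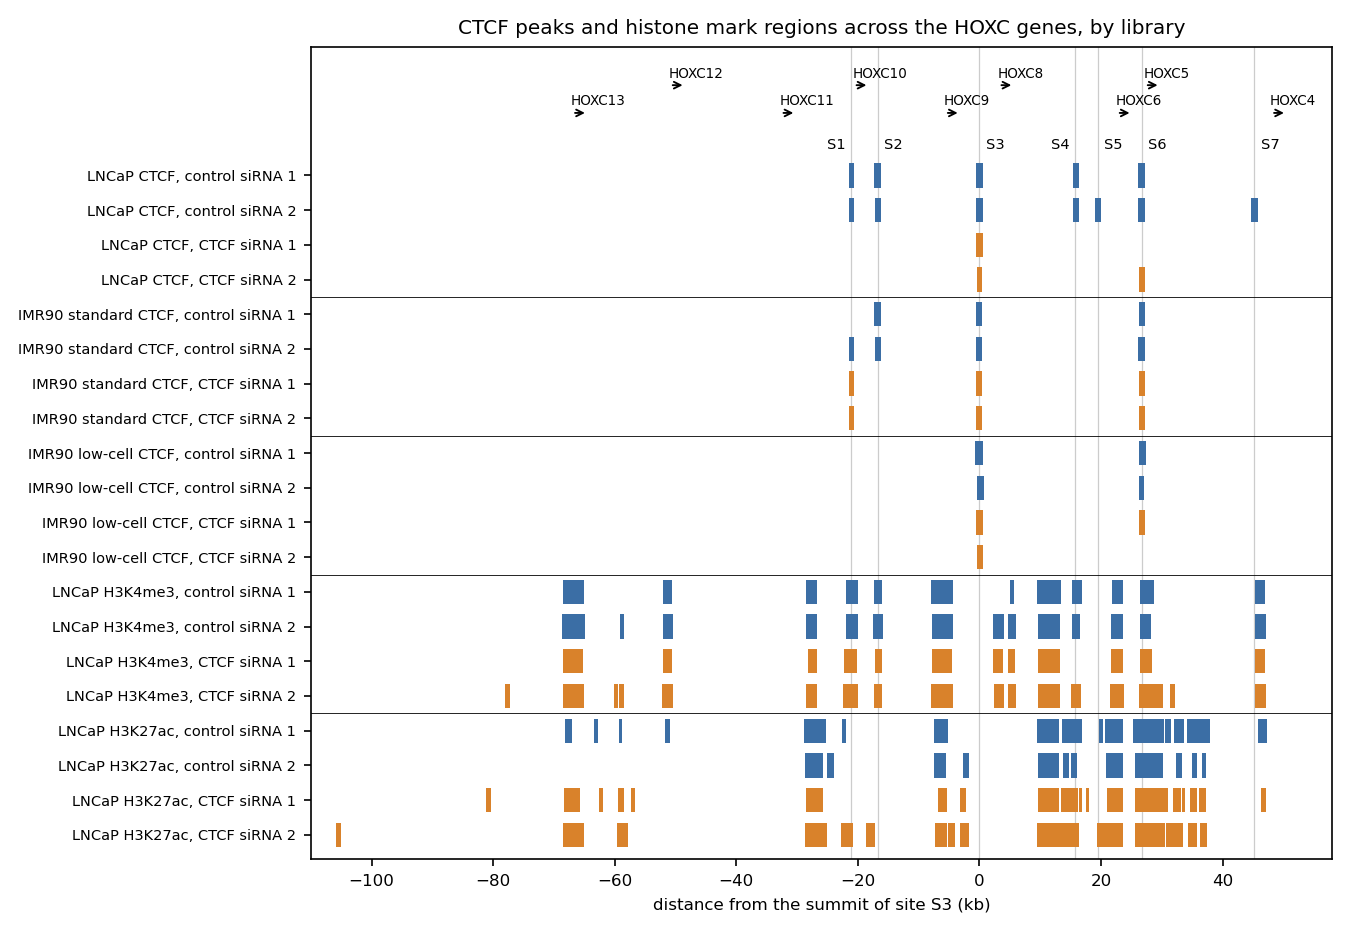
CTCF peaks and histone mark regions in each of the 20 libraries (rows) against the distance in kb from the summit of S3, with control siRNA in blue, CTCF siRNA in orange and gene starts as arrows. CTCF peaks are drawn wider than to scale so that they can be seen, and S3 is the only site of the window with a bar in all 12 CTCF rows. The genome-wide share of such sites is not given.

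S3 lies at chr12:54399451-54400175, 2931 bp to the left of the HOXC8 start and in an intron of long HOXC6 transcripts. Fold enrichment, the ratio of peak signal to local background, reached 16.0 and 14.0 at S3 in LNCaP with control siRNA and 11.0 and 8.32 with CTCF siRNA. In LNCaP both CTCF siRNA values were thus below both control values, with means of 15.0 ± 1.39 and 9.68 ± 1.92 (SD, n = 2 each). In standard IMR90 the values were 11.1 and 17.9 in control and 16.7 and 16.5 in CTCF siRNA libraries, and the groups overlapped. In low-cell IMR90 they were 12.3 and 10.6 against 13.8 and 6.03, again overlapping. Fold enrichment is not scaled between libraries, so these values describe each library and were not tested. The summits of the 12 peaks lay within 113 bp of each other. The genome-wide share of sites with a peak in all 12 libraries is not given, so this presence is not called unusual.

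S3 was a site of middling strength. Its mean control fold enrichment exceeded that of 61.3% of all LNCaP control sites. Of the 4111 LNCaP control sites within 10% of its strength, 6.62% were persistent (95% Wilson interval 5.90 to 7.42). In standard IMR90 58.1% of sites of like strength were persistent (56.5 to 59.7), and in low-cell IMR90 13.6% (12.3 to 15.0). These intervals cover counting error only.

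S6 lies at chr12:54426253-54426856, between HOXC6 and HOXC5 and 313 bp to the left of the HOXC5 start. In LNCaP it was the strongest site of the cluster, enriched 30.0- and 35.6-fold with control siRNA, above those of 95.6% and 96.5% of the peaks in the same lists. After CTCF siRNA it had no peak in replicate 1 and a peak of 11.3-fold in replicate 2, so it counts as lost. Replicate 1 is the shallower library with the shorter list, and without it S6 counts as persistent. The call of S6 as lost in LNCaP thus rests on this library, and the part of its depth was not tested. Of the 1372 LNCaP control sites within 10% of the strength of S6, 34.6% were persistent (95% Wilson interval 32.1 to 37.2).

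In standard IMR90 libraries S6 was persistent, at 16.3 and 12.2 in control and 12.9 and 18.6 in CTCF siRNA libraries, with overlapping groups. In low-cell IMR90 libraries it had 9.46 and 9.34 in control, 5.71 in CTCF siRNA replicate 1 and no peak in replicate 2, which has the shortest list of all. S3 and S6 were the only sites of the window present in both control libraries of all 3 experiments, and the genome-wide share of such sites is not given. Their summits are 26683 bp apart, with HOXC8 and HOXC6 between them.

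**Figure D2:**
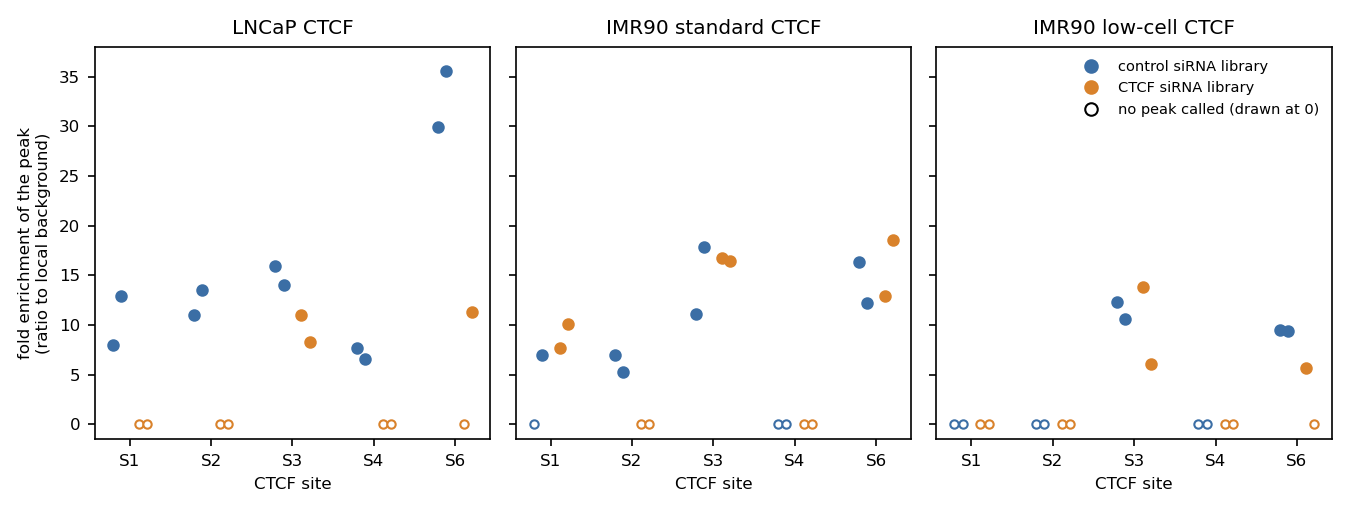
Fold enrichment of the CTCF peak (vertical axis, ratio to local background) at the 5 LNCaP control sites, with 1 point per library and 1 panel per experiment. Open points at 0 stand for libraries without a called peak, and S3 has no open point in any panel.

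S1 and S2 lie around HOXC10, a posterior gene. S1, at chr12:54378661-54378929, is 152 bp to the left of the HOXC10 start and in an exon of the antisense transcript HOXC-AS3. In LNCaP its peaks were enriched 7.99- and 12.9-fold with control siRNA, and no CTCF siRNA library had a peak. In standard IMR90 it was called in 1 of the 2 control libraries, at 6.93, and in both CTCF siRNA libraries, at 7.65 and 10.1. At S1 the number of libraries with a called peak thus fell in LNCaP and rose in standard IMR90, a difference that was not tested. Of the 4023 LNCaP control sites within 10% of its strength, 1.79% were persistent. S1 had no peak in any low-cell library.

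S2, at chr12:54382871-54383341, lies in a coding exon of HOXC10, 4174 bp to the right of its start. Its fold enrichment in control libraries was 11.0 and 13.6 in LNCaP and 6.94 and 5.28 in standard IMR90. It had no peak in any CTCF siRNA library of either cell line. Sites of like strength were persistent in 3.25% of cases in LNCaP and 6.22% in standard IMR90.

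S4, at chr12:54415526-54415793, was found in LNCaP alone, in introns of the long HOXC6 and HOXC4 transcripts 6619 bp to the left of the HOXC6 start. It was the weakest LNCaP control site of the window, at 7.65 and 6.55, and had no peak after CTCF siRNA. Sites of like strength were persistent in 1.08% of cases in LNCaP. S5, at chr12:54419247-54419446, and S7, at chr12:54444930-54445247, were called in LNCaP control replicate 2 only, at 3.6 and 7.31. That library has the longest CTCF list, and neither site counts as a control site.

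The cell lines were compared in their control libraries. Of the 5 LNCaP sites 3 were also standard IMR90 sites (S2, S3 and S6), where 72.5% of all LNCaP control sites were shared in this way. All 3 IMR90 sites were LNCaP sites, against 79.4% genome-wide. The window held 5 and 7 peaks in the LNCaP libraries and 3 and 4 in the standard IMR90 libraries, a mean of 6.0 ± 1.41 against 3.5 ± 0.707 (SD, n = 2 each). The groups did not overlap, and the two-sided exact permutation test gave p = 0.333, the smallest it can give with 2 libraries per group.

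The number of CTCF peaks in the window was compared between treatments. LNCaP had 5 and 7 peaks in control and 1 and 2 in CTCF siRNA libraries, means of 6.0 ± 1.41 and 1.50 ± 0.707 without overlap (exact permutation p = 0.333). Standard IMR90 had 3 and 4 against 3 and 3, and low-cell IMR90 had 2 and 2 against 2 and 1, each with an exact permutation p of 1.00. Over the 3 experiments, with labels permuted within each, the mean difference was -1.83 peaks per library (exact permutation p = 0.0833, n = 2 per group and experiment). The direction turned when all lists of an experiment were shortened to the length of its shortest list by p-value, where the mean difference was 1.00 peak (exact permutation p = 0.0278). In these shortened lists S3 was kept in both CTCF siRNA libraries of all 3 experiments, but in only 1 of the 6 control libraries. The shortest list of each experiment was a CTCF siRNA list, so control lists lost the most peaks. The turn and its p therefore measure the shortening together with the few peaks kept. They are not read as a result about the window.

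The window was also set against the whole list. LNCaP libraries had 1.32 and 1.51 HOXC peaks per 10000 peaks in control and 2.69 and 2.59 after CTCF siRNA. Standard IMR90 had 0.840 and 1.08 against 1.56 and 1.62, and low-cell IMR90 had 0.986 and 1.04 against 3.91 and 4.95. The groups did not overlap in any experiment. The mean difference was 1.76 peaks per 10000 (exact permutation p = 0.00926, the smallest that these libraries allow). The share rests on 1 to 7 peaks per library, with S3 in every list, over lists that were much shorter after CTCF siRNA. The p therefore measures the shorter lists together with the few peaks kept and is not read as a result about the window.

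Beyond the window the nearest LNCaP control sites were at chr12:54185526-54185907, 146707 bp from the HOXC genes on the left, and at chr12:54528676-54529077, 78861 bp away on the right. Neither had a peak in an LNCaP CTCF siRNA library. The left site was also lost in both IMR90 experiments. In standard IMR90 the nearest site on the right, at chr12:54585347-54585839, was persistent. In low-cell IMR90 the site there had a peak in 1 CTCF siRNA library and counted as lost.

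At the gene starts, most of the HOXC genes carried H3K4me3 in LNCaP and fewer carried H3K27ac. The start of each gene's canonical transcript lay inside an H3K4me3 region in all 4 libraries for 6 of 9 genes and inside an H3K27ac region in all 4 for 3 of 9. Among 19881 protein-coding gene starts the shares were 60.2% and 44.3%. HOXC9, HOXC6 and HOXC5 had both marks in every library. HOXC5, an anterior gene, lay under H3K27ac regions of 5050 and 4600 bp in control and 5450 and 4900 bp in CTCF siRNA libraries, the widest at any HOXC start. At HOXC6, known to be overexpressed in prostate cancer, they were 3000 and 2800 bp against 2550 and 4250 bp. At HOXC9 they were 2300 and 1900 bp against 1500 and 1950 bp. Control and CTCF siRNA widths overlapped at all 3 genes.

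HOXC13, HOXC12 and HOXC10, of the posterior group, had H3K4me3 in all 4 libraries without steady H3K27ac. The H3K4me3 regions at HOXC13 were 3500 and 3750 bp wide in control and 3250 and 3500 bp in CTCF siRNA libraries. Those at HOXC12 were 1550 and 1600 bp against 1550 and 1800 bp. Those at HOXC10 were 2000 and 2000 bp against 2250 and 2500 bp, so that both CTCF siRNA values were higher, which was not tested. No other HOXC start marked in all 4 libraries showed this, and the share of all regions that did is not given. H3K27ac was called at HOXC13 in 3 libraries, at HOXC12 in control replicate 1 only and at HOXC10 in CTCF siRNA replicate 2 only. HOXC8 had H3K4me3 in 3 libraries, with none in control replicate 1, and no H3K27ac.

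HOXC11 had neither mark in any library. The canonical start of HOXC4 also had neither, although an H3K4me3 region stood within 1000 bp of it in all 4 libraries. The start of a longer HOXC4 transcript, near HOXC8, had both marks in all 4 libraries, as did the start of a long HOXC6 transcript.

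**Figure D3:**
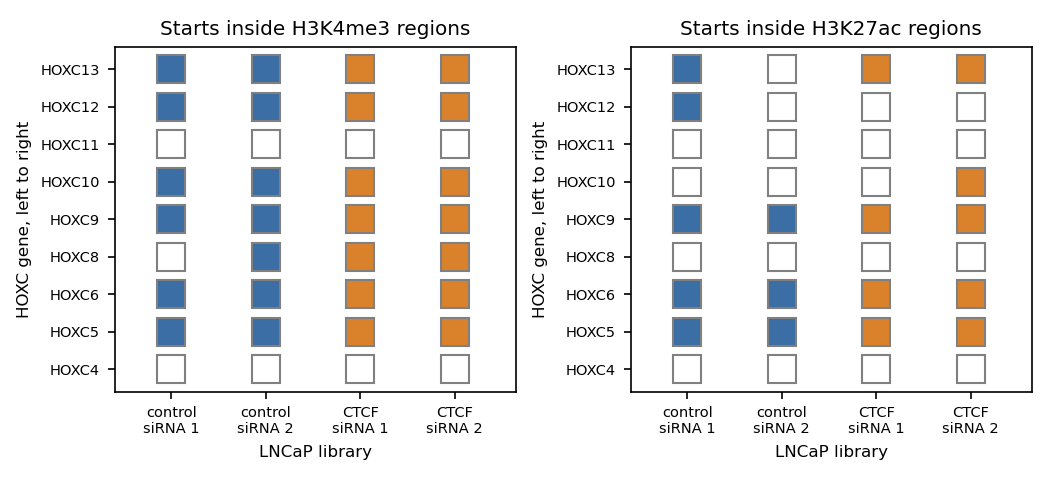
Canonical starts of the 9 HOXC genes (rows, HOXC13 to HOXC4) inside an H3K4me3 or H3K27ac region in each of the 4 LNCaP libraries of the mark (columns), where a filled square stands for a start inside a region. HOXC9, HOXC6 and HOXC5 are filled in both panels in all libraries, and HOXC11 and HOXC4 in none.

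Among the other transcripts of the locus, HOXC-AS1 and MIR615, a microRNA gene within HOXC5, had both marks at their starts in all 4 libraries. HOXC-AS3 had H3K4me3 in all 4 and no H3K27ac, and HOXC13-AS had H3K4me3 in all 4 and H3K27ac in both CTCF siRNA libraries alone. In control replicate 1 an H3K27ac region ended at chr12:54332850, short of the HOXC13-AS start at 54333427. HOTAIR, a long noncoding RNA known for its tie to Polycomb proteins, had neither mark, nor did HOXC-AS2 or MIR196A2. Of the flanking genes, CALCOCO1 had both marks in all 4 libraries. SMUG1, a DNA repair gene, had H3K4me3 in all 4 and H3K27ac in the 2 CTCF siRNA libraries alone. Genome-wide, 13.2% of H3K27ac regions were called in both CTCF siRNA libraries and neither control library. The share of gene starts with this pattern is not given, and the pattern was not tested.

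Regions of the window were compared by the libraries that called them. Of the 14 H3K4me3 regions 11 were called in all 4 libraries, against 58.9% genome-wide, and the other 3 were called in 2 or 3. No region was limited to the control libraries, present in both of these and absent after CTCF siRNA, a pattern shown by 2.55% of regions genome-wide. None was limited to both CTCF siRNA libraries, where the genome-wide share was 6.44%. Of the 12 H3K27ac regions 7 were called in all 4 libraries, against 56.9% genome-wide. None was specific to the control libraries, against 1.85%, and none to the CTCF siRNA libraries, against 13.2%. Regions ran from 900 to 4000 bp for H3K4me3 and from 1450 to 8500 bp for H3K27ac, and the widest held S6 and the HOXC5 start.

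H3K4me3 covered 11.8% and 12.9% of the window in control and 11.2% and 15.6% in CTCF siRNA libraries. The means were 27200 ± 1697 and 29525 ± 6894 bases (SD, n = 2 each) and the exact permutation p was 1.00. H3K27ac covered 15.1% and 10.3% against 14.1% and 17.8%, means of 27925 ± 7601 and 35100 ± 5657 bases with an exact permutation p of 0.667. Both differences were within the spread of the replicates. Both H3K27ac lists were longer after CTCF siRNA, with 94628 and 99157 regions against 87146 and 70099, while the H3K4me3 lists overlapped in length, with 41244 and 59920 regions against 36637 and 48605. Per 1000000 bases of the list, the window held 205 and 184 H3K27ac bases in control and 177 and 173 in CTCF siRNA libraries, so that the direction turned. For H3K4me3 these values were 405 and 342 against 350 and 334. With lists of equal length the direction did not turn, at differences of 2925 H3K27ac and 975 H3K4me3 bases (exact permutation p = 0.667 and 1.00).

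The persistent site S3 and the site S6 divide the genes into segments, whose coverage is given here per library. Between S3 and S6, the stretch with HOXC8 and HOXC6, H3K27ac covered 44.3% and 35.9% in control and 40.8% and 45.3% in CTCF siRNA libraries. Between HOXC13 and S3 it covered 13.1% and 10.5% in control and 13.6% and 23.3% in CTCF siRNA libraries. The latter groups did not overlap, with a mean difference of 6.65 percentage points and the smallest exact permutation p possible, 0.333. To the left of HOXC13 the groups did not overlap either, with the same exact permutation p. H3K27ac covered 1.93% and 0% there in control and 3.45% and 4.02% in CTCF siRNA libraries. The part of the longer H3K27ac lists after CTCF siRNA in these differences was not tested. Between S6 and the end of HOXC4 coverage was 49.4% and 24.4% in control and 39.0% and 39.2% in CTCF siRNA libraries.

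H3K4me3 covered 31.3% and 38.5% of the stretch from S3 to S6 in control and 31.6% and 41.8% in CTCF siRNA libraries. From HOXC13 to S3 it covered 18.7% and 20.0% against 17.3% and 22.3%, and from S6 to the end of HOXC4 14.8% and 12.8% against 12.8% and 25.2%. To the right of HOXC4 no region of either mark was called in any library. To the left of HOXC13, beyond the region at its start, 3 regions were called, each in 1 CTCF siRNA library.

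**Figure D4:**
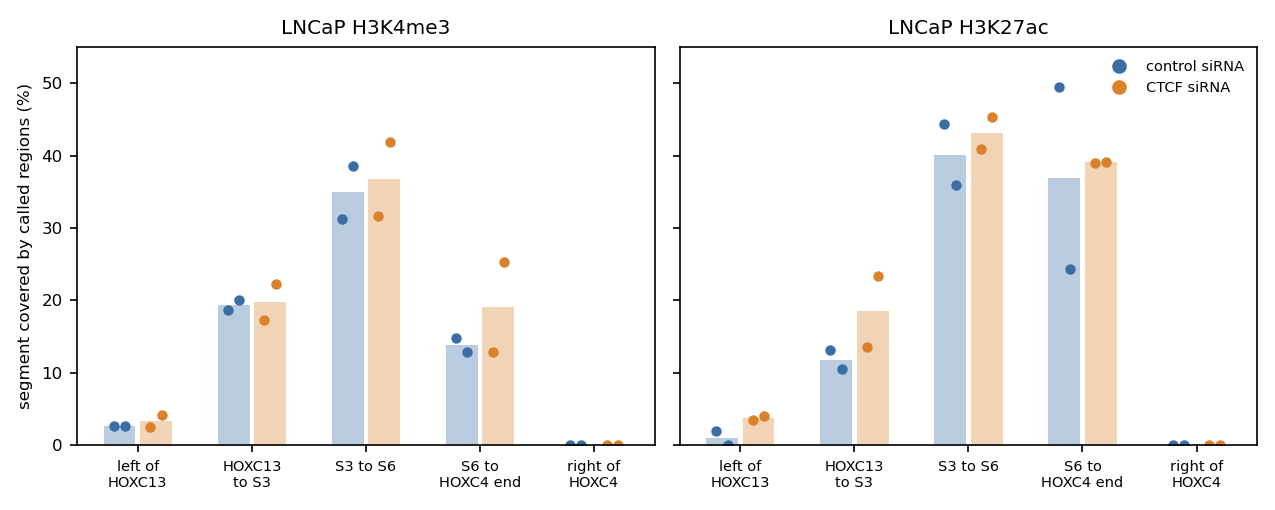
Percent of each segment of the window covered by H3K4me3 (left) and H3K27ac (right) regions in LNCaP, with 1 point per library and bars at the mean of the 2 libraries of a treatment. Coverage was highest between S3 and S6 for H3K4me3, and no region was called to the right of HOXC4.

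The marks were then read on either side of each LNCaP control site, as the percent of the 5000 bp to its left and right covered by a mark. A difference of at least 50 percentage points in both control libraries was counted as a step. For H3K4me3 0 of 5 sites had a step, where 3.03% of all LNCaP control sites did. For H3K27ac 1 of 5 did, against 3.39% genome-wide. This was S4, where H3K27ac covered 90.0% and 85.0% of the left side and 36% and 5.00% of the right side in control libraries. After CTCF siRNA, when S4 had no CTCF peak, H3K27ac covered 92.0% and 98.0% of the left and 26.1% and 39.0% of the right side. At this flank width the sides of S4 were thus also unequal in both CTCF siRNA libraries. With 2000 bp on either side, right minus left at S4 was -52.15 and -84.65 percentage points in control libraries, a step. After CTCF siRNA the difference at S4 was -37.5 and -79.65, which did not meet the rule in both libraries. S6 met it then, at 57.4 and 59.9, against 44.9 and 59.9 in control libraries. The genome-wide share after CTCF siRNA was 6.91%. With 10000 bp on either side S4 had no step, at 56.8% and 53.8% on the left and 51.5% and 32.5% on the right in control libraries. For H3K4me3 the left side of S4 was covered to 63.0% and 61.0% and the right side to 19.1% and 12.1% in control, just short of a step. After CTCF siRNA they were 51.5% and 66.0% against 0% and 14.1%, which just met the rule for a step in both libraries. Genome-wide, with 5000 bp on either side, 3.08% of LNCaP control sites met it after CTCF siRNA for H3K4me3 and 4.29% for H3K27ac.

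S3 lay outside every called region of both marks. To its right the nearest H3K27ac region began 9513 to 9613 bp away in all 4 libraries, beyond HOXC8. To its left, towards HOXC9, the nearest H3K27ac region ended 5237 and 1737 bp away in control and 2187 and 1737 bp in CTCF siRNA libraries. In the 5000 bp to the left of S3, H3K27ac covered 0% and 21.0% in control and 20.0% and 50.0% in CTCF siRNA libraries, and in the 5000 bp to the right it covered 0% in all 4. H3K4me3 covered 18.2% and 16.2% of the left side in control and 13.2% and 16.2% in CTCF siRNA libraries. On the right side, which holds the HOXC8 start, it covered 5.64% in control replicate 1 and 42.6% to 46.6% in the other 3 libraries.

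S6 lay inside both marks in all libraries. Its summit stood near the left edge of the H3K4me3 region of HOXC5, which reached 320 and 270 bp to the left in control and 270 and 470 bp in CTCF siRNA libraries, and 1530 to 3530 bp to the right. The H3K27ac region reached further, 1070 to 1370 bp to the left and 3530 to 4330 bp to the right. In the 5000 bp on either side H3K27ac covered 67.0% and 60% on the left and 90.4% and 65.4% on the right in control libraries. After CTCF siRNA it covered 61.0% in both libraries on the left and 85.0% and 96.0% on the right.

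**Figure D5:**
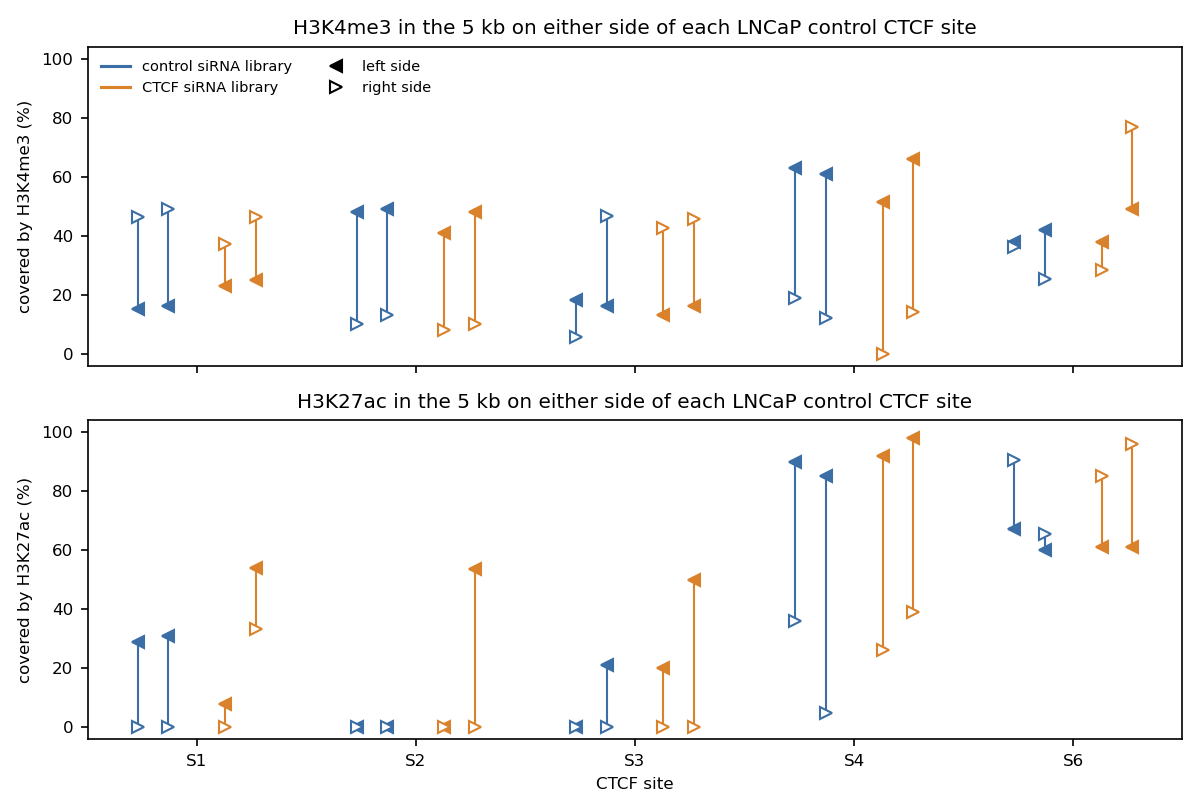
Percent of the 5 kb to the left (filled triangles) and to the right (open triangles) of each LNCaP control CTCF site covered by H3K4me3 (top) and H3K27ac (bottom), with 1 pair of triangles per library joined by a line. At S4 H3K27ac covered at least 85.0% of the left and at most 39.0% of the right side in all 4 libraries.

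S1 and S2, the sites lost around HOXC10, lay inside H3K4me3 regions in all 4 libraries. The H3K4me3 region over S1 is the one at the HOXC10 start. It reached 877 and 927 bp to the left of the summit in control and 1277 and 1377 bp in CTCF siRNA libraries, without overlap. Region edges in these lists fall on 50-bp steps, this edge was picked after its values were seen, and it was not tested. To the right it reached 1123 and 1073 bp against 973 and 1123 bp. H3K27ac covered 28.8% and 30.8% of the 5000 bp to the left of S1 in control and 7.80% and 54.0% in CTCF siRNA libraries, on either side of the control values. At S2 H3K27ac covered 0% of both sides except in CTCF siRNA replicate 2, where it covered 53.7% of the left side.

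The other HOX clusters, taken with 50000 bp on either side of their genes, are given beside HOXC, and no difference between clusters was tested. In LNCaP 3 of 5 HOXA sites, 2 of 8 HOXB sites, 1 of 5 HOXC sites and 1 of 7 HOXD sites were persistent. In standard IMR90 these were 5 of 6, 4 of 12, 2 of 3 and 3 of 4, and in low-cell IMR90 2 of 7, 2 of 9, 1 of 2 and 0 of 4. Canonical starts inside H3K4me3 regions in all 4 LNCaP libraries were 5 of 11 in HOXA, 4 of 10 in HOXB, 6 of 9 in HOXC and 1 of 9 in HOXD. For H3K27ac these were 0, 2, 3 and 0. H3K27ac covered 10.3% to 17.8% of the HOXC window over the 4 libraries, 7.10% to 12.9% of HOXA, 16.8% to 24.0% of HOXB and at most 0.580% of HOXD.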

How the data were processed

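Lists of CTCF peaks and histone regions from 20 libraries were used, 2 per group, with groups and replicate numbers taken from the sample labels. Alignment by the authors was to hg19, with Bowtie or, for the low-cell libraries, BWA, and they called CTCF peaks with MACS2 and histone regions with PeakRanger, per library and without pooling. The deposited CTCF lists give each peak's fold enrichment, a ratio to local background, and p-values and q-values on a −log10 scale, as the authors' caller wrote them. The largest q-value in any list was 0.0499. It was 0.00756 in LNCaP CTCF siRNA replicate 1 and 0.0227 in standard IMR90 CTCF siRNA replicate 2. In the other lists it was 0.0420 or more. The deposited histone regions carry a score whose meaning is not given in the sources used here, and it served only to rank regions. A list shows what passed a threshold, so a lost site fell below it, by an unknown amount.

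Only the 22 autosomes, X and Y were used, and peaks sharing at least 1 bp were matched. A control site was a merged peak found in both control libraries, and gained sites had a peak in both CTCF siRNA and no control library. For each mark the regions of its 4 libraries were merged, and those found in 2 or more were kept. Gene starts and site annotation came from GENCODE release 44 on GRCh37, and 0 chromosomes had a peak beyond the end of this assembly. Libraries were compared by two-sided exact permutation tests, stratified where several experiments were joined. Within 1 experiment, 2 libraries per group cannot give a p below 0.333, and over 3 experiments the smallest is 0.00926. The p-values measure the spread between these libraries only. The functions were tested on simulated lists with known answers. Python 3.11.15, numpy 2.4.6, pandas 2.3.3, scipy 1.17.1 and matplotlib 3.10.9 were used.

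Named were the 9 HOXC genes, 7 other transcripts of the locus, the nearest protein-coding gene on either side, the HOXA, HOXB and HOXD clusters as counts, and every site and region in the window. Full values were planned for sites present in all control libraries or persistent in 1 experiment, and S1, S2 and S4 were given in full as well, chosen after their values were seen. The genes, lists and rules were chosen with earlier results of these data known. Alternatives tried were a q-value of at most 0.001, lists of equal length, the span of the HOXC genes, other overlap rules, other flank widths and start distances, the replicate number as a block, and leaving out each library. Expression, Hi-C and the wild-type libraries were not analysed here. The sequence of S1 and 2 of the marker genes fixed for LNCaP are not reported here.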

Additional observations from a re-analysis of the deposited data

Results flagged for a closer look

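S1, 152 bp to the left of the HOXC10 start, stood out because LNCaP and standard IMR90 differed in its peaks with CTCF siRNA. A library without a called peak gives no value, so only the calls can be compared. In LNCaP both control libraries had a peak (7.99- and 12.9-fold) and no CTCF siRNA library did. In standard IMR90 control replicate 1 had none and control replicate 2 had 6.93-fold, and the CTCF siRNA libraries had 7.65- and 10.1-fold, a mean of 8.87 ± 1.73 (SD, n = 2). It does not count as gained, since a control library had it, and no low-cell IMR90 library had a peak there. The difference between LNCaP and standard IMR90 was not tested.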

How the results depend on the processing

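Shortening the lists of an experiment to equal length turned the CTCF peak counts. The difference in CTCF peaks per library (CTCF siRNA minus control) was then 0.5 in LNCaP, 1.5 in standard IMR90, 1 in low-cell IMR90 and 1 over the 3 experiments (exact permutation p = 0.0278), each in the opposite direction. Control and persistent sites were 1 and 0 in LNCaP, 1 and 1 in standard IMR90 and 0 and 0 in low-cell IMR90. The shortest lists were those of CTCF siRNA libraries, so control lists lost the most peaks, and the turn is not read as a result about the window. With a peak in either library counted, 2 sites were persistent in LNCaP and 2 in low-cell IMR90. With flanks of 2000 bp 1 site, S6, had an H3K4me3 step in control libraries, against 6.03% of LNCaP control sites genome-wide. With flanks of 10000 bp 0 sites had an H3K27ac step, S4 included, against 1.54% genome-wide. Per 1000000 bases of the list, an alternative added after seeing the data, the differences in covered bases were -31.3 for H3K4me3 and -20.2 for H3K27ac, with exact permutation p of 0.667 and 0.333, while equal-length histone lists, also added then, kept the direction (975 and 2925). Of 149 alternative values in all, 126 kept their direction and their side of the p threshold of 0.05 or stayed within 1.5 times the reported count. Tests within 1 experiment cannot give an exact permutation p below 0.333. They could therefore change in direction but not in side, and the count of 126 does not measure how firm the results are.

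Leaving out 1 library at a time, the difference in CTCF peaks ranged from -5.5 to -3.5 in LNCaP, from -1 to 0 in standard and in low-cell IMR90, and from -2.17 to -1.5 over the 3 experiments. Over the 3 experiments it was -2 with an exact permutation p of 0.0278 without standard IMR90 control replicate 1 or without low-cell CTCF siRNA replicate 1. The share of the list ranged from 1.58 to 1.93 peaks per 10000, and IMR90 minus LNCaP from -3.5 to -1.5 peaks. Control sites ranged from 5 to 7 in LNCaP, 3 to 4 in standard IMR90 and 2 to 2 in low-cell IMR90, and persistent sites from 1 to 2, 2 to 3 and 1 to 2. The difference in H3K4me3 bases ranged from -2550, without CTCF siRNA replicate 2, to 7200, and that in H3K27ac bases from 1800 to 12550. Without LNCaP CTCF siRNA replicate 1, S6 counts as persistent, and without low-cell CTCF siRNA replicate 2 it does so in low-cell IMR90.

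Replicate numbers are shared between groups without a stated pairing. Deviations of same-numbered libraries from their group means correlated at 0.296 in LNCaP CTCF, -0.0115 in standard and 0.0636 in low-cell IMR90, 0.196 for H3K4me3 and 0.0280 for H3K27ac, over features called in all 4 libraries. With the replicate number as a block, the difference over the 3 experiments was -1.83 peaks (exact permutation p = 0.125) and that in the share of the list 1.76 per 10000 (exact permutation p = 0.0313), and no call changed.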
